A study of Mus musculus with 6 samples.

Results

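Gsta4 and Duox1, a pair of genes that act on opposite sides of redox balance, were followed across 6 kidney arrays through 1 linear RNA probe each. These are 2 of the 50 linear RNA probes on an array built mainly for circular RNAs, which carried 14236 circRNA probes. The Gsta4 probe is A_51_P112223 (RefSeq mRNA NM_010357) and the Duox1 probe is A_51_P475138 (RefSeq mRNA NM_001099297), and each was spotted 10 times per array. The genes were taken up with the difference between groups already known. Gsta4 was selected on its limma adjusted p of 0.028 between CIH and control, as 1 of the 2 linear RNA probes under 0.05 (the background is 4.00% of the 50), and Duox1 was set beside it as a probe for a source of reactive oxygen. The values of that comparison are therefore a description for both genes and are not used as support.

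Total RNA came from kidneys of BALB/c mice, with 3 arrays of mice kept under chronic intermittent hypoxia (CIH) and 3 control arrays. CIH stands in for obstructive sleep apnoea. Chamber oxygen fell to 6% for 60 seconds and then went back to 21% for 60 seconds, at 30 cycles per hour during 8 hours a day over 8 weeks. The labels give neither the age of the mice nor how the control mice were housed. They also leave unsaid whether arrays could share a mouse, so any p-value refers to the spread between samples, which may be technical. The protocols name pancreas as the tissue and describe an RNA purification made for blood that removes globin messages. None of 17 kidney cell markers is among the 44 linear RNA probes with a gene symbol, so the kidney label could not be checked against them. Of 40 markers of kidney, endothelial, pancreatic, blood and fat cells, 1 is measured, the secretory granule gene Chgb of the islet list, at -0.09 to 0.43 in CIH and -0.28 to 0.33 in control arrays (log2, with the array's 75th percentile at 0).

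Gsta4 encodes an alpha-class glutathione transferase that joins glutathione to 4-hydroxynonenal and related aldehydes, the reactive products left when membrane lipids are peroxidised. Duox1 encodes a dual oxidase, a membrane NADPH oxidase that releases hydrogen peroxide at epithelial surfaces and needs the maturation factor Duoxa1 to leave the endoplasmic reticulum. In the RefSeq annotation of GRCm38.p6 Gsta4 lies between Cilk1 and Gsta1, another alpha-class transferase, and Duox1 lies between Duoxa1 and Shf. That assembly differs from the mm9 design of the array, so no coordinates are given. The probe sequences are not used here, and whether the Gsta4 probe also binds RNA of its paralogs was not tested.

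Gsta4 signal was lower in every CIH array than in every control array. The processed intensity of the Gsta4 spots, corrected for background and spatial trend but not scaled between arrays, averaged 126 in CIH 1, 129 in CIH 2 and 172 in CIH 3. In controls 1, 2 and 3 it averaged 251, 235 and 209. The groups did not overlap on this unscaled intensity, with a CIH mean of 142 ± 25.8 (SD, n = 3) against a control mean of 231 ± 21.3 (SD, n = 3).

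The same order held after scaling, in which the 75th percentile of each array was subtracted from the log2 intensity. The scaled Gsta4 level was -2.07, -1.84 and -1.47 in CIH 1, 2 and 3. It was -0.84, -0.997 and -1.13 in controls 1, 2 and 3. CIH 1 was the lowest array and control 1 the highest, and CIH 3 lay closest to the controls, 0.34 below control 3. The 9 differences between a CIH and a control array ran from -1.22 to -0.34.

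The difference between group means was -0.80 on the log2 scale (SE 0.16, limma). Gsta4 in CIH thus stood at 57.4% of the control level, with a 95% interval of 44.6% to 73.9%. Its adjusted p rose above 0.05 without control 1 (limma, 0.085) or without control 2 (limma, 0.20). The groups did not overlap for 8 of the 50 linear RNA probes (16.0%), 7 of them lower in CIH (14.0%), and Gsta4 was among these 7. At an unadjusted limma p under 0.05 there were 9 probes (18.0%), with Gsta4 among them and Duox1 not. The mean was lower in CIH for 36 of the 50 probes (72.0%), with a median difference of -0.06 over all 50. In bulk tissue, fewer cells that express a gene and less of its RNA per cell cannot be told apart.

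Duox1 levels overlapped between the groups. The processed intensity of the Duox1 spots averaged 2686 in CIH 1, 2099 in CIH 2 and 2274 in CIH 3. In controls 1, 2 and 3 it averaged 2440, 2089 and 1883. The highest and the lowest array were thus CIH 1 and control 3 on this unscaled intensity.

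After scaling to the 75th percentile, the Duox1 level was 2.35, 2.18 and 2.26 in CIH 1, 2 and 3. It was 2.44, 2.16 and 2.04 in controls 1, 2 and 3. Control 1 was now the highest array and control 3 the lowest, so all CIH values lay inside the range of the controls. The difference between group means was 0.05 (SE 0.11, limma), and CIH stood at 103% of the control level with a 95% interval of 86.0% to 124%. This interval bounds the measured change and does not show that Duox1 was equal in both groups. Of the 9 pairs of a CIH and a control array, CIH was lower in 3.

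**Figure D1:**
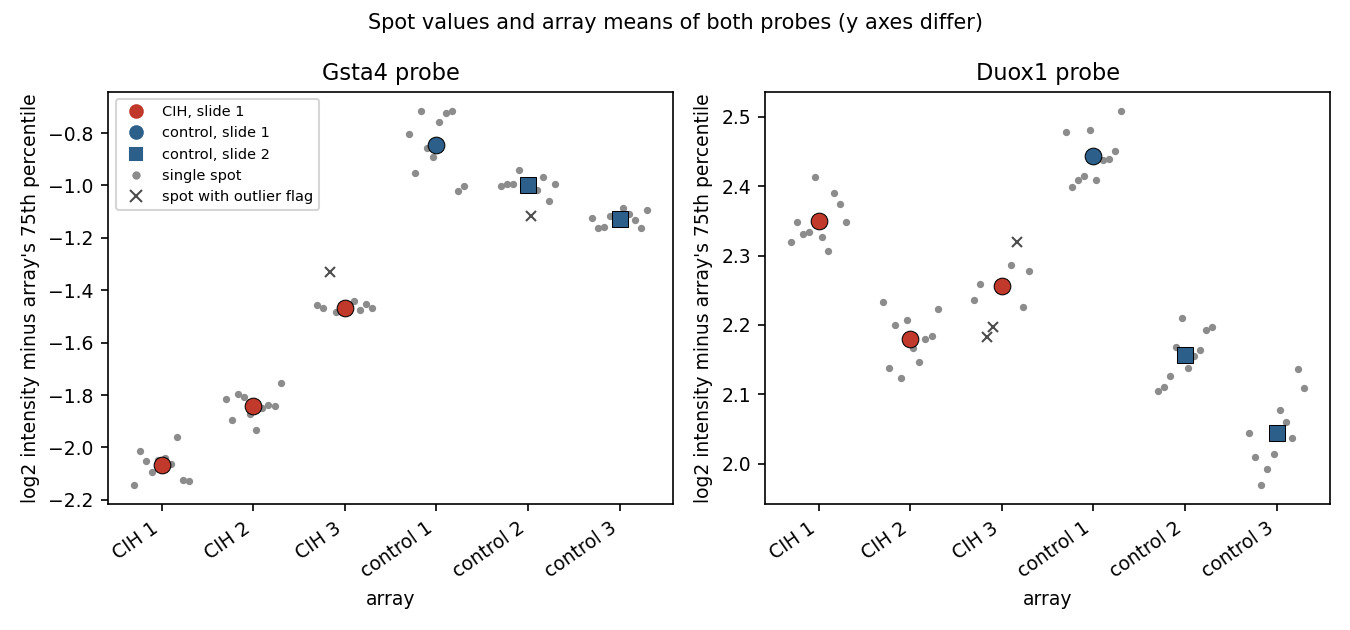
Log2 intensity relative to the 75th percentile of the array (y axis, a different range for each gene) in the 3 CIH and 3 control arrays (x axis). Small grey points are single spots, crosses are spots with an outlier flag that were left out, and large symbols are array means, drawn as circles for slide 1 and squares for slide 2. The Gsta4 means of the CIH arrays lie between -2.07 and -1.47, below the controls at -1.13 to -0.84, while the Duox1 means overlap.

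Spot SDs within an array are given beside the SD between arrays of a group. The SD of the unflagged Gsta4 spots within an array lay between 0.015 (CIH 3) and 0.12 (control 1) on the log2 scale, with a median of 0.042 over the arrays. For Duox1 it lay between 0.022 and 0.052, with a median of 0.036. Between arrays of a group the SD was 0.30 (CIH) and 0.14 (control) for Gsta4, and 0.085 and 0.21 for Duox1. Repeated spots measure the same labelled RNA, so they fix the error of an array's value and add no replicates.

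Of the 60 Gsta4 spots, 2 carried an outlier flag (1 each in CIH 3 and control 2), and of the 60 Duox1 spots 3 did (all in CIH 3). No spot of either probe was saturated and all were well above background. Positions on the array were compared with flagged spots included. At each of the 10 Gsta4 positions the 3 CIH spots were below the 3 control spots. The mean difference at a position ran from -0.84 to -0.72. The 29 unflagged CIH spots had intensities of 119 to 175 and the 29 unflagged control spots had 204 to 273. For Duox1 no position separated the groups in that way, and position differences of the means ran from 0.0011 to 0.083, all with CIH higher. For both probes the positions repeat the array difference known when the genes were chosen, so they add no support to it. The SD of the 10 spots did not pass an exact two-sided permutation test between groups for either probe (p = 0.8 for Gsta4 and p = 0.1 for Duox1, the smallest p that 3 against 3 arrays allow being 0.1).

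The array carries 15 probes named as negative, which serve here as the reference for a dim signal, although the files do not say what they bind. Gsta4 was above their mean by 1.54, 1.69 and 1.92 on the log2 scale in CIH 1, 2 and 3. In controls 1, 2 and 3 it was above that mean by 2.38, 2.21 and 2.23. The mean was taken over log2 levels, so it stands for the geometric mean of their intensities. Gsta4 was 2.92 to 3.80 times that geometric mean in CIH and 4.63 to 5.22 times in control arrays. This restates on another scale the difference known when the gene was chosen.

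Gsta4 was nevertheless a dim probe. Among the 15 negative-named probes, 13 were dimmer than Gsta4 on the arrays CIH 1 and CIH 2, and 14 were dimmer on the other 4 arrays. The brightest negative-named probe stayed above it everywhere, by 0.81 to 1.40 in CIH and by 0.17 to 0.33 in control arrays. The Gsta4 level therefore lay inside the range that the negative-named probes span.

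Duox1 lay far above all 15 negative-named probes in all 6 arrays. Its level exceeded their mean by 5.96, 5.71 and 5.65 in CIH 1, 2 and 3. In controls 1, 2 and 3 the excess was 5.67, 5.37 and 5.41. Duox1 was 50.1 to 62.3 times the geometric mean of their intensities in CIH and 41.2 to 50.9 times in control arrays. The groups overlapped by 0.023 on the log2 scale. Levels of different probes depend on their binding strength and are not compared as amounts of RNA.

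The negative-named probes themselves were lower in CIH. Their mean level was -3.61, -3.53 and -3.39 on the CIH arrays. On the control arrays it was -3.23, -3.21 and -3.36. In all, 14 of the 15 probes had a lower mean in CIH. The difference of their mean was -0.25 (exact two-sided permutation p = 0.1, the smallest possible here). The groups did not overlap, with CIH lower, for 10 of the 15 (66.7%), against the 14.0% of linear RNA probes.

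In particular, 2 of the negative-named probes, singled out after their values were seen, had differences near that of Gsta4. MM9NEGATIVE002 had levels of -3.15, -2.95 and -2.35 in CIH 1, 2 and 3, against -1.65, -1.98 and -2.47 for the controls in the same order, a difference of -0.78. MM9NEGATIVE003 had -2.66, -2.53 and -1.75 in CIH and -1.24, -1.45 and -2.06 for controls, a difference of -0.73. As for Gsta4, CIH 1 was their lowest array and control 1 their highest, but CIH 3 lay above control 3 in both. After centring each probe on its own mean over the 6 arrays, MM9NEGATIVE002 and MM9NEGATIVE003 differed from Gsta4 by a root mean square of 0.17 and 0.21. The other 13 negative-named probes had differences of -0.27 to 0.15, with a mean of -0.17. What these probes share with the Gsta4 probe was not tested.

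Relative to the mean of all 15 the Gsta4 difference shrank to -0.56 (SE 0.12) and its limma adjusted p rose to 0.083, while that of Duox1 grew to 0.29 (SE 0.12, adjusted p 0.13). This centring moves all 50 linear RNA probes up by 0.25 in CIH against control. The part of this shift in the Gsta4 difference was not tested.

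**Figure D2:**
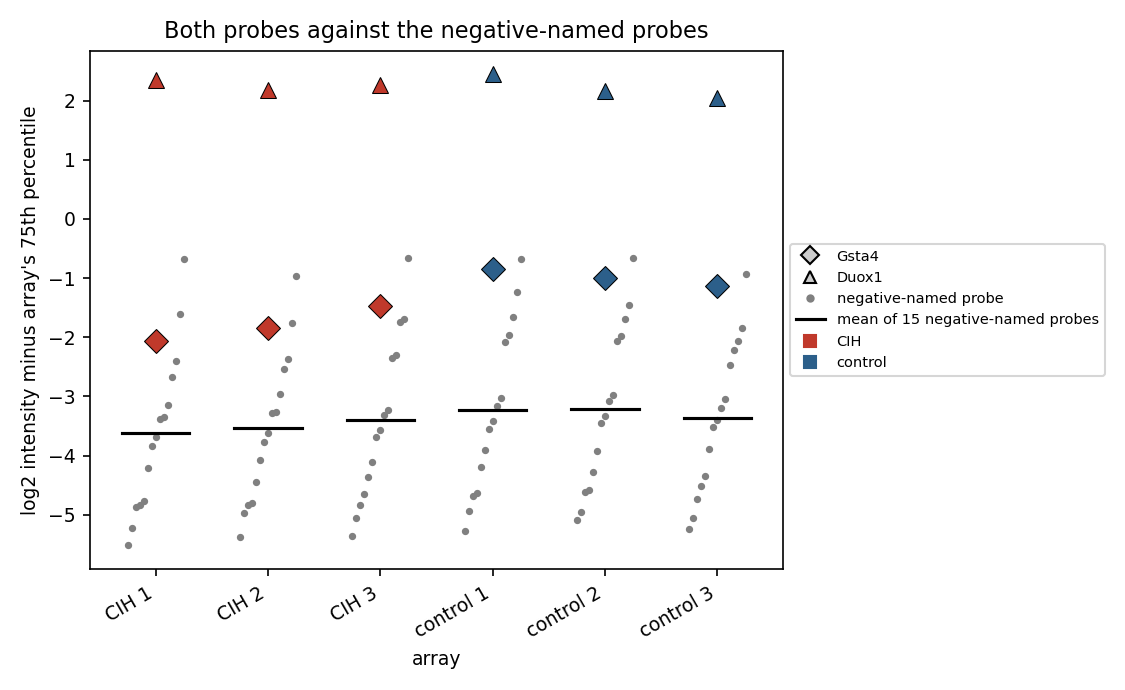
Log2 intensity relative to the 75th percentile of the array (y axis) for Gsta4 (diamonds), Duox1 (triangles) and the 15 negative-named probes (grey points, black line at their mean) in each array (x axis), red for CIH and blue for control. Gsta4 lies 1.54 to 2.38 above their mean and below the brightest of them, and Duox1 lies 5.37 to 5.96 above that mean.

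The probes were also read as a ratio within each array, in which a common scaling factor cancels but a common background offset does not. The Gsta4 intensity was 4.68%, 6.16% and 7.57% of the Duox1 intensity in CIH 1, 2 and 3. In controls 1, 2 and 3 it was 10.2%, 11.2% and 11.1%. The log2 ratio was -4.05 ± 0.35 (SD, n = 3) under CIH, compared with -3.20 ± 0.072 (SD, n = 3) for controls, a difference of -0.85. It was -0.66 with normexp background correction. This is the Gsta4 difference less that of Duox1, both known when the genes were chosen, and adds no evidence to them.

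The arrays sat on 2 slides, per the file headers. All CIH arrays shared slide 1 with control 1, while controls 2 and 3 were on slide 2, which overlays part of the group difference with slide. The Gsta4 level of control 1, the only control on slide 1, was above the mean of controls 2 and 3 by 0.22. The CIH mean was below controls 1, 2 and 3 by differences of -0.95, -0.79 and -0.66. The first of these is the value within slide 1 and rests on 1 control array. With slide as a block the Gsta4 difference was the same -0.95 (SE 0.23, limma adjusted p 0.40).

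Duox1 levels separated by slide and not by group. Its 4 arrays of slide 1 had levels of 2.18 to 2.44 and its 2 arrays of slide 2 had 2.04 and 2.16. The slides did not overlap, with a gap of 0.024 between CIH 2 and control 2. The mean of each of these arrays had a spot SE of 0.012 (SD of its spots over the square root of their number). The gap was below the SD between arrays of a group, which was 0.085 in CIH and 0.21 in control arrays. The CIH mean minus control 1, on the same slide, was -0.18, while it was 0.11 above control 2 and 0.22 above control 3. The value within slide 1 again rests on 1 control array. The direction of the Duox1 difference thus turned with the slide taken into account (-0.18, SE 0.097, limma adjusted p 0.62). Without control 3 it was -0.038.

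**Figure D3:**
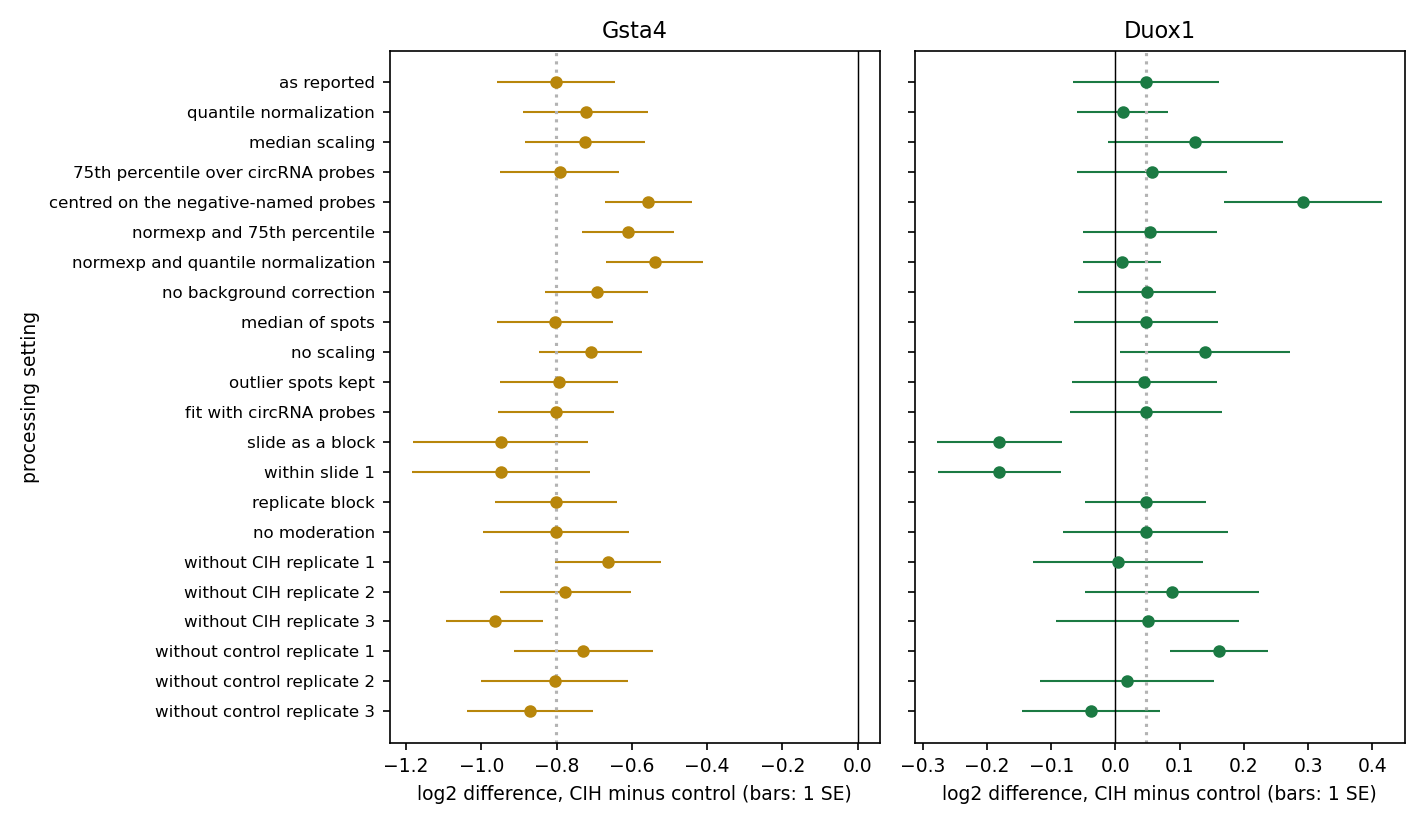
Difference between CIH and control on the log2 scale (x axis, with 1 SE) for Gsta4 and Duox1 under each processing setting (y axis), with the reported value as a dotted line. All Gsta4 values lie below 0, between -0.96 and -0.54, and the Duox1 values lie on both sides of 0, from -0.18 to 0.29.

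Few other redox genes can be read by a linear RNA probe on this array. Of 95 genes in 7 lists (glutathione transferases, glutathione synthesis and use, NADPH oxidases and partners, peroxide and superoxide removal, the NRF2 pathway, lipid aldehyde removal and the hypoxia response), 1 has a linear RNA probe. This is Prdx2, a thioredoxin-dependent peroxidase that reduces hydrogen peroxide in the cytosol. Neither another glutathione transferase nor Duoxa1 or Duox2 is among the 44 linear RNA probes with a symbol. The 6 linear RNA probes without a symbol could not be assigned to a list.

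The Prdx2 level was 0.093, 0.15 and 0.17 in CIH 1, 2 and 3, against 0.26, 0.26 and 0.18 for the controls in the same order. All CIH arrays were below all controls, but the gap between CIH 3 and control 3 was 0.0041. The Prdx2 difference was -0.09 (SE 0.068) and did not pass (limma adjusted p 0.58). None of the 7 lists therefore had another member that passed in either direction.

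**Figure D4:**
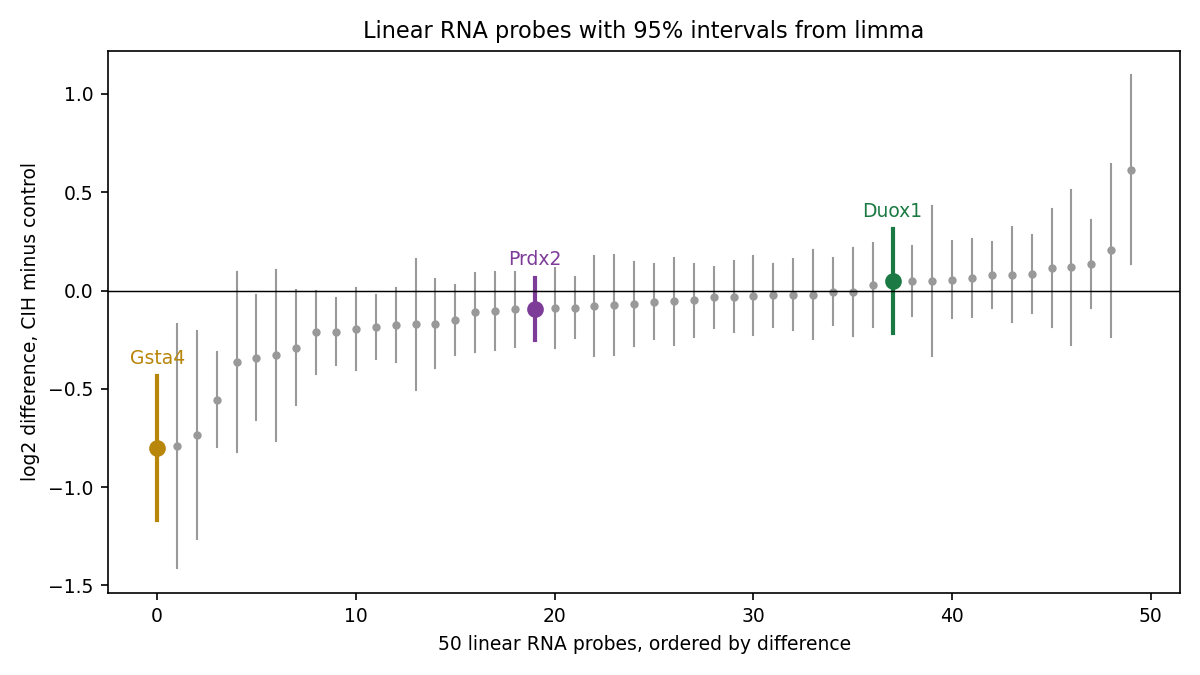
Difference between CIH and control on the log2 scale (y axis) with its 95% limma interval for the 50 linear RNA probes, ordered by size (x axis). Gsta4 at -0.80 is the lowest of the 50 under this scaling, Prdx2 is at -0.09 and Duox1 at 0.05, and the intervals of the last pair include 0.

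The genes whose pattern was most like that of each member were sought among the other 43 linear RNA probes with a symbol. Likeness was the root mean square difference of log2 levels over the 6 arrays after each probe was centred on its own mean. For Gsta4 the closest were Acaa2, the last thiolase of mitochondrial beta-oxidation (0.30), Tyr, the tyrosinase of pigment cells (0.34), and Nup50, a nuclear pore protein (0.35). The median over the 43 probes was 0.42, and each of these 3 values exceeded the largest spot SE of a Gsta4 array mean (0.038, control 1). MM9NEGATIVE002 (0.17), MM9NEGATIVE003 (0.21) and MM9NEGATIVE011 (0.29) were closer to Gsta4 than any of the 43.

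Among these 3 genes the groups were separate only for Acaa2, the other linear RNA probe under an adjusted p of 0.05 (difference -0.56, SE 0.10, limma adjusted p 0.028). Its level was -0.07 ± 0.059 (SD, n = 3) under CIH, compared with 0.48 ± 0.18 (SD, n = 3) for controls. Within the controls Acaa2 was highest in control 3 (0.47 above its mean over the arrays) and Gsta4 in control 1 (0.55 above its mean). Tyr and Nup50 had differences of -0.17 (SE 0.096, limma adjusted p 0.38) and -0.29 (SE 0.12, adjusted p 0.25), and their groups overlapped. Both were dim. The mean level of the negative-named probes was -3.51 in CIH and -3.27 in control arrays. Tyr lay below it, at -4.26 in CIH and -4.09 in control arrays. Nup50 lay near it, at -3.36 and -3.07.

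Values on this measure were smaller for Duox1. The measure is not scaled to the spread of a probe. Its median over the 43 probes was also lower for Duox1 (0.17) than for Gsta4 (0.42). Tm9sf1, a membrane protein of the transmembrane 9 family, differed from Duox1 by 0.047. Gamt, the methyltransferase that completes creatine synthesis, differed by 0.055 and Pex11a, a peroxisome division protein, by 0.082. The first of these values exceeded the largest spot SE of a Duox1 array mean (0.016, control 3). Each of these genes was below its own mean in controls 2 and 3. Control 1 was the highest array for Duox1, at 0.20 above its mean, and also for Tm9sf1 (0.18) and Pex11a (0.16), while Gamt was highest in CIH 1 (0.098). Differences between CIH and control were -0.0062 for Tm9sf1 (SE 0.096), 0.08 for Gamt (SE 0.085) and 0.03 for Pex11a (SE 0.090), and none passed (limma adjusted p 0.95, 0.65 and 0.84).

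**Figure D5:**
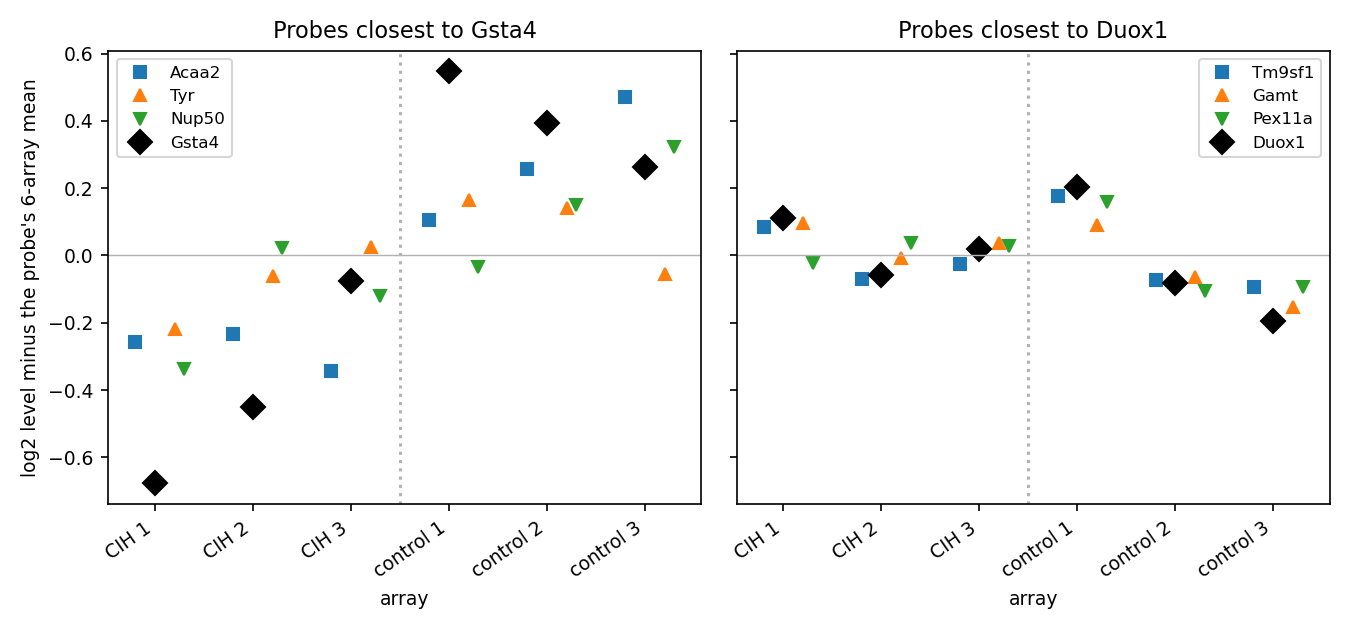
Log2 level minus the mean of the probe over the 6 arrays (y axis) in each array (x axis) for Gsta4 and Duox1 (black diamonds) and the 3 linear RNA probes closest to each (coloured symbols). The probes nearest to Duox1 lie within 0.047 to 0.082 of it (root mean square), and those nearest to Gsta4 within 0.30 to 0.35.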

How the data were processed

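Cy3-labelled RNA (0.5 µg per sample) was hybridised to 1-colour Agilent arrays, 1 per sample, and groups and replicate numbers come from the titles. The deposited intensity values come from Feature Extraction by Agilent (11.0.1.1 per the file headers, 9.1 per the submitters' processing notes), with background subtraction and a spatial trend correction and no scaling between arrays. The authors' value table holds circRNA probes only and was not used.

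Processed intensities were put on the log2 scale, centred on the 75th percentile over each array's non-control spots and averaged over spots without an outlier flag. The groups were compared with limma 3.58.1 (moderated linear model, R 4.3.3), two-sided, over all 50 linear RNA probes with Benjamini-Hochberg adjustment at 0.05. Of these probes 44 matched a symbol in the RefSeq table of GRCm38.p6 and 6 did not. For spot SDs and negative-named probes the two-sided permutation test was exact. The fit was tested on simulated data. The number of arrays limits the precision.

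The members and lists were chosen with earlier results of these data known. Named genes are the members, other measured genes of the lists, and the 3 named probes closest to each member. Alternatives covered scaling, background correction, spot summary, slide or replicate number as a block, variance model and leaving out each array. Normexp used the median spot signal.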

Additional observations from a re-analysis of the deposited data

How the results depend on the processing

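The unscaled setting, the negative reference without its brightest probe and the alternatives for the negative-named probes and spot SDs were chosen after seeing the data. The Gsta4 difference was below 0 in all 21 alternatives, and its adjusted p (0.0051 to 0.40) was under 0.05 in 12. It was above in the following, with the difference given: quantile normalization (-0.72), centring on the negative-named probes (-0.56), normexp with quantile normalization (-0.54), the joint fit with circRNA probes or no moderation (-0.80 each), and slide as a block or slide 1 alone (-0.95 each). Without 1 array it ran from -0.96 to -0.66, and the adjusted p was above 0.05 without control 1 (-0.73) or control 2 (-0.81). The Duox1 difference did not pass in any of its 21 alternatives (adjusted p 0.13 to 0.997). It turned to -0.18 with slide as a block and within slide 1, and ran from -0.038 (without control 3) to 0.16 without 1 array. The number of linear RNA calls, 2 as reported, was 0 with quantile normalization, negative centring, normexp with quantile normalization, the joint fit, slide as a block, slide 1 or no moderation, 1 without scaling, and 0 (without control 2) to 5 (without CIH 2) without 1 array. At an unadjusted p under 0.05 limma had 9 linear RNA probes, and 2 to 19 in the fits that gave 0. The Gsta4 level over the negative-named probes, 2.00 on average, was 2.19 without the brightest of these, 1.11 with normexp and 1.43 with no background correction. For Duox1 it was 5.63, and 5.82, 4.39 and 4.90 in the same order. The Gsta4 spot SD difference of -0.018 ran from -0.035 to 0.011 without 1 array, with 0.011 without control 1. With the replicate block the Gsta4 difference was -0.80 (limma adjusted p 0.041), that of Duox1 0.05, that of their log2 ratio -0.85, and 4 probes passed. Arrays of the same number had deviations with correlations of 0.44, 0.29 and -0.07 over circRNA probes. Over linear RNA probes these were 0.41, 0.16 and -0.46. Replicate 3 was under the 0.1 asked of a pair, so the reported fit did not pair the samples by number. Whether the samples were paired cannot be told from these values. The authors' value table holds neither probe and gave no value. For these changes the cause was not tested.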
